A study of Mus musculus with 12 samples.

Results

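The neurotrophins and their receptors were followed in the hippocampus of 12 mice through 7 genes: the ligands Bdnf, Ntf3 and Gdnf, the receptors Ntrk2, Ntrk3 and Ngfr, and the neuropeptide precursor Vgf. A gene was measured by a transcript cluster, a group of array probes that stands for a single transcript or gene, and a cluster was taken where the platform annotation paired it with that gene symbol alone. Of the 7 genes, 6 had such a cluster, 1 each, among 22180 genes named in this way, and Ntf3 was not analysed here. All 12 animals were male and 18 months old, were perfused with saline, and gave 1 hippocampal RNA sample and 1 Affymetrix Mouse Gene 2.0 ST array each. App HFD mice were homozygous for the NL-F allele of App (App NL-F/NL-F, a knock-in on a C57BL/6J background) and were fed a high-fat diet (HFD) for 12 months from the age of 6 months, and App RD mice had the same genotype and a regular diet (RD) for the same time. WT HFD and WT RD mice were wild-type animals kept on these diets over the same months, and each of the 4 groups held 3 mice. In the knock-in, both copies of the animal's own App gene carry a humanized Aβ sequence and the Swedish and Beyreuther/Iberian mutations, so that the mutant protein is made under the gene's own control in every cell that uses it. The labels call the mice on HFD diabetic and those on RD non-diabetic, so diet and metabolic state cannot be told apart.

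Neurotrophins are secreted proteins that keep neurons alive and adjust their synapses. Their mature forms act through the Trk receptor tyrosine kinases, BDNF through TrkB (the product of Ntrk2) and NT-3 mainly through TrkC (the product of Ntrk3), while the unprocessed precursors act through p75NTR (the product of Ngfr) together with sortilin. In the hippocampus, Bdnf is made mainly by excitatory neurons, its transcription follows neuronal activity through a family of alternative promoters, and the BDNF–TrkB pathway is best known for its part in synaptic plasticity. GDNF belongs to another family, signals through Ret and GFRα receptors, and is known for the support of dopaminergic and motor neurons.

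Values are log2 intensities as deposited, and a difference of 1 is a change by a factor of 2. Ntrk2 (mean log2 intensity 9.63 over 12 mice), Ntrk3 (9.70) and Vgf (8.47) lay above an intensity of 100, which is 6.64 on the log2 scale, while Bdnf (5.38), Ngfr (4.61) and Gdnf (3.51) lay below it. Only 23.6% to 24.3% of the clusters of an array were above that intensity, and the median of an array lay between 4.78 and 4.84, so Ngfr and Gdnf were read below the array median, where background makes up more of the signal and differences are understated. Levels of different genes were not set against each other, because each has its own probes. Any 2 arrays correlated at 0.982 to 0.988 over all clusters. The mean of 7 markers of hippocampal neurons was between 8.69 and 9.01 in every mouse, whereas the mean of 5 choroid plexus markers ranged from 6.19 to 8.83 and differed widely inside all 4 groups.

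No difference between App and WT mice, or between HFD and RD, passed the test for any of the 6 genes. The 12 arrays entered a single limma fit of 41345 clusters with a mean for each group, and Benjamini-Hochberg adjustment ran across every cluster. None of the 48 combinations of a gene and a contrast was called at an adjusted p under 0.05, and none had an unadjusted p under 0.05. In the same fit, the share of all clusters called at the adjusted threshold was 0% in every contrast and in the F test over 4 groups, except for 0.00242% (1 cluster) for genotype over both diets. At an unadjusted p under 0.05, the share of all clusters was 5.31% for App HFD against WT HFD, 6.18% for App RD against WT RD, 6.47% for genotype over both diets and 5.19% for App HFD against WT RD. It was 4.62% for App HFD against App RD, 5.22% for WT HFD against WT RD, 4.97% for diet over both genotypes, 4.97% for the interaction and 5.69% for the F test, in which the smallest p of the 6 genes was 0.212, for Ntrk3. The largest difference among the 48 was 0.41, and the median size of a difference for the 6 genes was 0.08 for genotype and 0.06 for diet, beside 0.08 and 0.07 over all clusters. In bulk tissue, fewer cells of a type and less RNA per cell cannot be told apart.

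**Figure D1:**
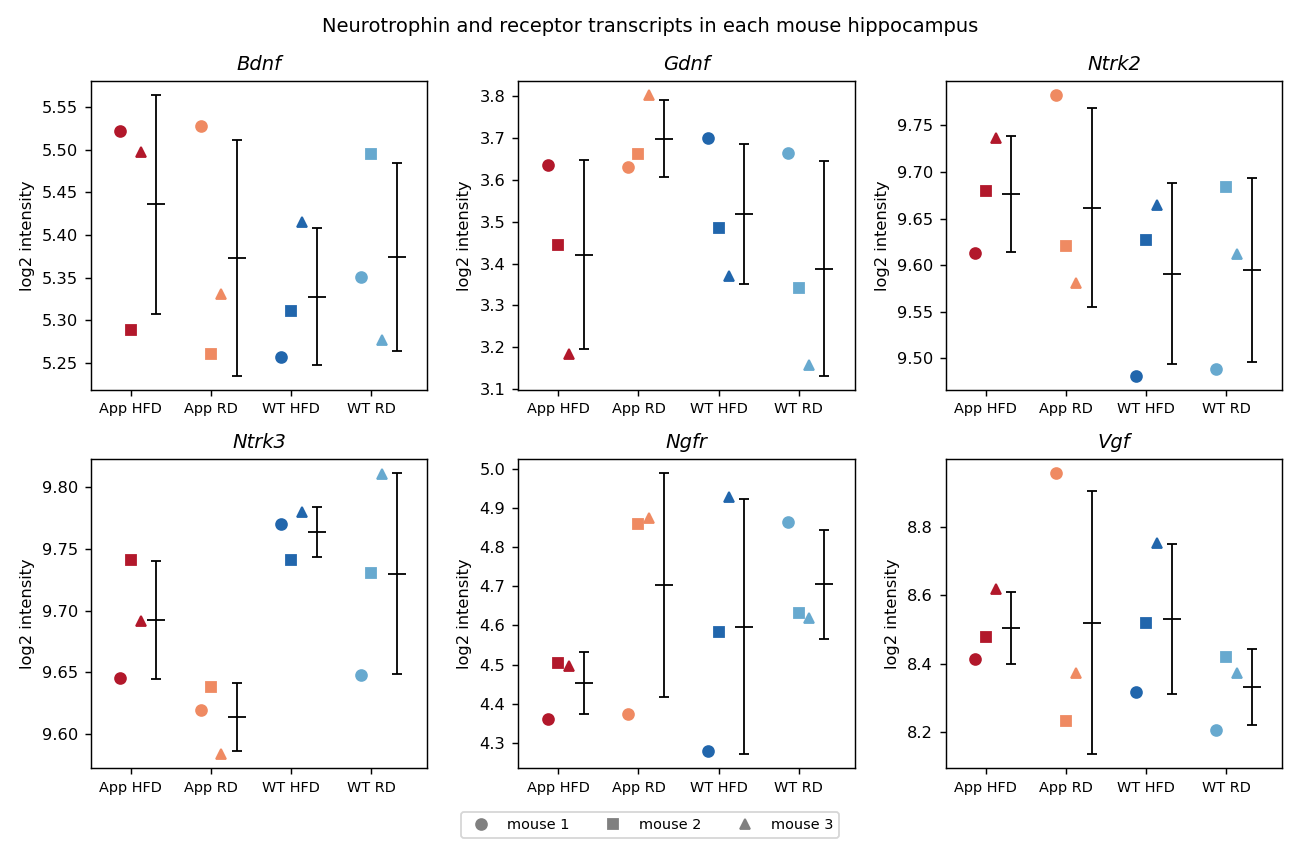
Log2 intensity of each gene (vertical axes, each with its own scale) in the 12 mice, by group. Symbols mark the mouse number in its group, which the labels do not tie across groups, and bars show the mean and SD of 3 mice. Groups overlapped in most panels, and Ntrk3 was the gene whose App mice lay below the WT mice on the same diet.

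Bdnf, the main neurotrophin of the adult hippocampus, gave nearly the same array signal in the 4 groups. Its log2 intensity was 5.52, 5.29 and 5.50 in App HFD mice, 5.53, 5.26 and 5.33 in App RD mice, 5.26, 5.31 and 5.42 in WT HFD mice, and 5.35, 5.49 and 5.28 in WT RD mice. Each group held both low and high animals, and all pairs of groups overlapped. By mean, App HFD was highest (5.44 ± 0.13, SD, n = 3), followed by WT RD (5.37 ± 0.11), App RD (5.37 ± 0.14) and WT HFD (5.33 ± 0.08), and no neighbours in that order differed by more than their spread. The difference was 0.05 for genotype over both diets (SE 0.07, 95% interval -0.11 to 0.21, limma adjusted p = 0.933) and 0.01 for diet over both genotypes (SE 0.07, interval -0.15 to 0.17, adjusted p = 1). On the linear scale the genotype interval ran from 0.929-fold to 1.16-fold and the diet interval from 0.9-fold to 1.12-fold. These intervals are for the array signal. With a mean of 5.38 Bdnf was read below an intensity of 100, so its differences may be understated as well.

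Gdnf, the founding ligand of the GDNF family, gave the largest differences of the 6 genes and was also the dimmest of them. It measured 3.63, 3.45 and 3.18 in App HFD mice, 3.63, 3.66 and 3.80 in App RD mice, 3.70, 3.49 and 3.37 in WT HFD mice, and 3.66, 3.34 and 3.16 in WT RD mice. The App RD mice were all in the upper part of the range, but each of the other groups held 1 mouse that reached their level, so no pair of groups was apart. App RD averaged 3.70 ± 0.09, WT HFD 3.52 ± 0.17, App HFD 3.42 ± 0.23 and WT RD 3.39 ± 0.26 (SD, n = 3 each). Gdnf was 0.31 higher in App RD than in WT RD (SE 0.15, limma adjusted p = 0.823; exact permutation, two-sided p = 0.3) and differed by -0.28 between App HFD and App RD (SE 0.15, limma adjusted p = 0.999; exact permutation p = 0.2). The diet difference within WT mice was 0.13 (SE 0.15), so the interaction, the diet difference in App mice minus that in WT mice, was -0.41 (SE 0.21, 95% interval -0.88 to 0.07, limma adjusted p = 1). Without WT RD mouse 1, the difference of App RD from WT RD was 0.45 (limma adjusted p = 0.689), and without WT RD mouse 3 it was 0.19 (adjusted p = 0.952).

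Ntrk2, which encodes the BDNF receptor TrkB in neurons and astrocytes, averaged slightly more in both App groups, and the groups overlapped. The values were 9.61, 9.68 and 9.74 in App HFD mice, 9.78, 9.62 and 9.58 in App RD mice, 9.48, 9.63 and 9.66 in WT HFD mice, and 9.49, 9.68 and 9.61 in WT RD mice. The 2 lowest mice were WT and the 2 highest were App, and the other 8 lay mixed between 9.58 and 9.68. The group means were 9.68 ± 0.06 in App HFD, 9.66 ± 0.11 in App RD, 9.59 ± 0.10 in WT RD and 9.59 ± 0.10 in WT HFD (SD, n = 3 each), with no neighbours apart by more than their spread. The genotype difference was 0.08 (SE 0.06, 95% interval -0.06 to 0.21, limma adjusted p = 0.878; exact permutation within diets, two-sided p = 0.17), and the diet difference was 0.01 (SE 0.06, interval -0.13 to 0.14).

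Ntrk3, which encodes the NT-3 receptor TrkC, had the most regular pattern of the 6 genes, since every App mouse lay below every WT mouse on the same diet, by a small amount that did not pass the limma test. Its values were 9.65, 9.74 and 9.69 in App HFD mice against 9.77, 9.74 and 9.78 in WT HFD mice, and 9.62, 9.64 and 9.58 in App RD mice against 9.65, 9.73 and 9.81 in WT RD mice. Neither pair overlapped, although the gap was only 0.00013 on HFD and 0.01 on RD. Across diets the genotypes did overlap, because WT RD mouse 1 (9.65) lay below 2 of the App HFD mice.

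The mean Ntrk3 level was 9.69 ± 0.05 in App HFD, 9.61 ± 0.03 in App RD, 9.76 ± 0.02 in WT HFD and 9.73 ± 0.08 in WT RD (SD, n = 3 each). The difference was -0.07 for App HFD against WT HFD and -0.12 for App RD against WT RD (SE 0.07 each), both at the smallest exact permutation p that 3 against 3 mice allow (two-sided p = 0.1). Groups of 3 did not overlap in 11.6% of all clusters for App HFD against WT HFD and in 10.9% for App RD against WT RD, and for 1 of the 6 genes in each. Both pairs lay apart in the same direction in 1.06% of all clusters and for 1 of the 6 genes, Ntrk3. Over both diets the genotype difference was -0.09 (SE 0.05, 95% interval -0.20 to 0.01, 0.937-fold), with an adjusted p of 0.798 in limma. When genotype was permuted within each diet, the exact two-sided p was 0.005, the smallest that 400 assignments allow, and this permutation test was run on the 6 genes for genotype and again for diet without adjustment. That p restates the separation on both diets and adds nothing to it, since any cluster apart in this way, 1.06% of all, must reach it.

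Within App mice Ntrk3 was 0.08 higher on HFD than on RD (SE 0.07, limma adjusted p = 0.999), and the 3 App HFD mice all lay above the 3 App RD mice. Such a separation was seen for 1 of the 6 genes and for 9.62% of all clusters. In WT mice the same difference was 0.03 (SE 0.07) with overlapping groups, and no gene of the 6 was apart in that comparison, beside 10.3% of all clusters. The interaction was 0.05 (SE 0.10, limma adjusted p = 1), so a difference between genotypes in the effect of the diet on Ntrk3 was not detectable with 3 mice a group.

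Marker means of astrocytes and microglia, but not of oligodendrocytes, also lay apart between App and WT mice on the same diet, without a test of the means. The mean of 6 astrocyte markers was 8.96 to 9.02 in App HFD mice against 8.82 to 8.94 in WT HFD mice, and 9.01 to 9.02 in App RD mice against 8.87 to 8.93 in WT RD mice, and 5 of the 6 had a positive genotype difference. The microglial mean over 6 markers was 7.49 to 7.71 in App HFD mice against 7.40 to 7.45 in WT HFD mice, and 7.42 to 7.54 in App RD mice against 7.21 to 7.36 in WT RD mice, with 6 of 6 positive. None of these 12 genes was called after adjustment (Gfap, the intermediate filament of astrocytes, 0.28, limma adjusted p = 0.493; Cd68, a lysosomal protein of phagocytes, 0.37, adjusted p = 0.286). The oligodendrocyte means overlapped, with 7.91 to 8.02 in App HFD mice against 7.72 to 7.93 in WT HFD mice. On RD they were 7.55 to 7.94 in App mice against 7.63 to 7.79 in WT mice, and 5 of 5 markers had a positive genotype difference. The share of all clusters with a positive genotype difference was not counted. Over the 12 mice Ntrk3 correlated at -0.65 with the astrocyte mean and at 0.60 with the mean of hippocampal neuron markers, as a description with no test. These were the largest values among the marker lists. With the microglial mean it was -0.16, and with the remaining lists it ran from -0.14 (choroid plexus) to 0.04 (meningeal fibroblasts). Across 9 lists of cell type markers, 50 of 53 genes were measured, none was called, and 41 of 400 combinations (10.2%) had an unadjusted limma p under 0.05, beside 5.37% over all clusters. The part of cell composition in the Ntrk3 difference was not tested.

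Ngfr, which encodes the p75 neurotrophin receptor, was spread widely between mice and lowest on average in App HFD. Its values were 4.36, 4.50 and 4.50 in App HFD mice, 4.37, 4.86 and 4.87 in App RD mice, 4.28, 4.58 and 4.93 in WT HFD mice, and 4.86, 4.63 and 4.62 in WT RD mice. App HFD lay wholly below WT RD, a separation found for 1 of the 6 genes and for 10.5% of all clusters in that comparison, and the remaining pairs overlapped. The means were 4.45 ± 0.08 in App HFD, 4.60 ± 0.32 in WT HFD, 4.70 ± 0.28 in App RD and 4.70 ± 0.14 in WT RD (SD, n = 3 each). App HFD differed from WT RD by -0.25 (SE 0.18, limma adjusted p = 0.993; exact permutation, two-sided p = 0.1) and from App RD by -0.25 (SE 0.18, adjusted p = 0.999). Without App RD mouse 1, the low animal of its group, the difference from App RD was -0.41 (limma adjusted p = 1). Ngfr correlated at 0.70 over the 12 mice with the choroid plexus mean, which was 6.24 to 8.38 in App HFD mice, 6.19 to 8.83 in App RD mice, 6.40 to 8.71 in WT HFD mice and 7.43 to 8.41 in WT RD mice. The lowest 3 choroid plexus means, 6.19 in App RD mouse 1, 6.24 in App HFD mouse 3 and 6.40 in WT HFD mouse 1, all went with Ngfr values of 4.50 or lower. App HFD mouse 1 went the other way, with the second lowest Ngfr value (4.36) beside a choroid plexus mean of 8.38, and whether tissue composition had a part in the Ngfr values was not tested.

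Vgf, a secreted neuropeptide precursor whose transcription is induced by neurotrophins and by activity, differed more between mice of a group than between groups. It measured 8.41, 8.48 and 8.62 in App HFD mice, 8.96, 8.23 and 8.37 in App RD mice, 8.32, 8.52 and 8.75 in WT HFD mice, and 8.21, 8.42 and 8.37 in WT RD mice. App RD mouse 1 was the highest of all 12 and gave its group the largest SD. The means were 8.50 ± 0.11 in App HFD, 8.52 ± 0.38 in App RD, 8.53 ± 0.22 in WT HFD and 8.33 ± 0.11 in WT RD (SD, n = 3 each), and all pairs of groups overlapped. The genotype difference was 0.08 (SE 0.13, 95% interval -0.20 to 0.36, limma adjusted p = 0.944) and the diet difference 0.09 (SE 0.13, interval -0.19 to 0.37, adjusted p = 1). App RD lay 0.19 above WT RD with all 3 mice, but differed by -0.03 from it without App RD mouse 1, and App HFD against App RD gave -0.02 with that mouse and 0.20 without it (limma adjusted p = 0.999 and 1).

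**Figure D2:**
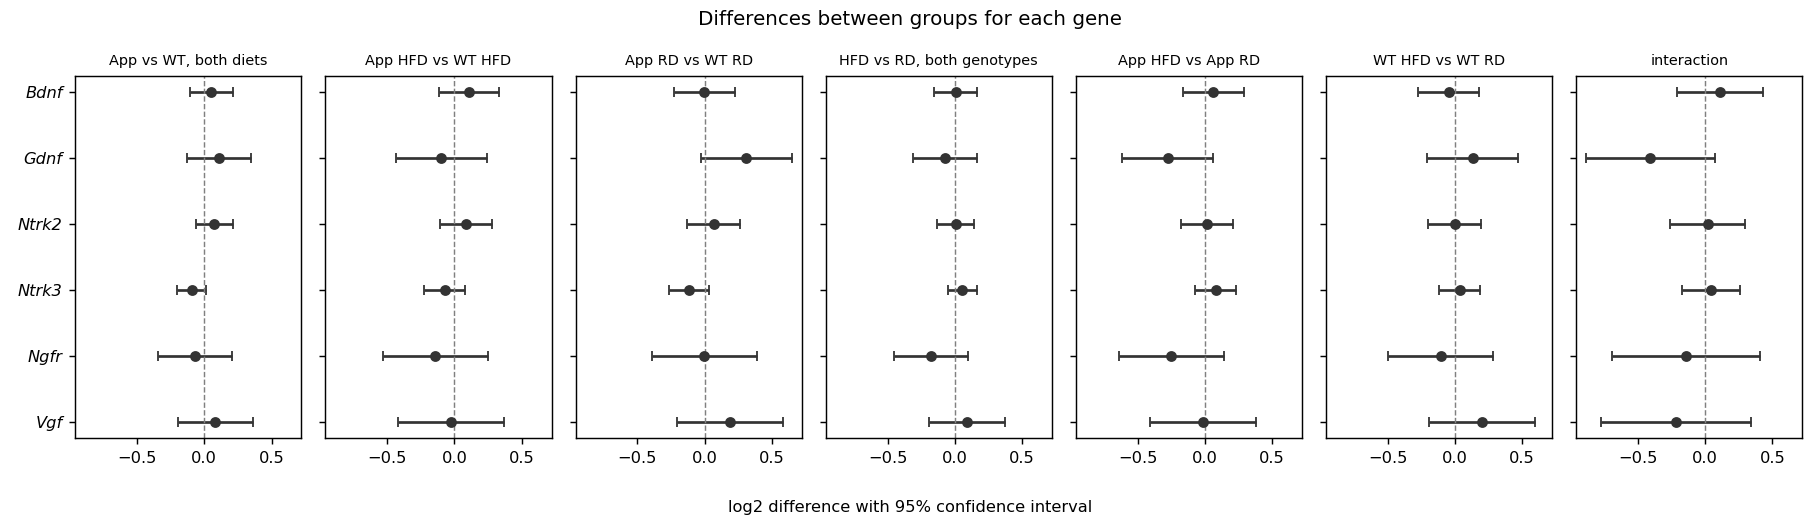
Log2 difference of each gene (rows) in 7 contrasts (panels), with points for the limma estimate and bars for its 95% confidence interval. All intervals cross 0, and they are narrowest for Ntrk3 and Ntrk2 and widest for Vgf and Ngfr.

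Ntrk2 and Vgf varied together from mouse to mouse, and Bdnf had positive correlations with both that did not pass the adjustment. Ntrk2 and Vgf correlated at 0.79 over the 12 mice (Pearson, permutation p = 0.00231, adjusted p = 0.0346 over the 15 pairs of genes; Spearman rho 0.83, permutation p = 0.00154, adjusted p = 0.0231). The relation was closer within groups, with r = 0.87 after each group's mean was removed, and r was 0.76 without the 2 mice farthest from the median in Vgf, App RD mouse 1 and WT HFD mouse 3. Bdnf correlated with Vgf at 0.59 (Pearson permutation p = 0.0402, adjusted p = 0.151; rho 0.61, p = 0.0397, adjusted p = 0.185), at 0.70 within groups and at 0.45 without those 2 mice. Bdnf and Ntrk2 correlated at 0.61 (Pearson permutation p = 0.0389, adjusted p = 0.151; rho 0.59, p = 0.0493, adjusted p = 0.185), at 0.57 within groups and at 0.37 without the 2 mice farthest in Ntrk2. The relations of Bdnf were thus weaker without the mice farthest in Vgf or Ntrk2. Without the 2 mice farthest in Bdnf, App RD mouse 1 and App HFD mouse 1, r was 0.53 with Vgf and 0.58 with Ntrk2. Gdnf ran the other way, with r = -0.67 to Ntrk3 and r = -0.46 to Ntrk2 (Pearson permutation adjusted p = 0.15 and 0.395), and of the 15 pairs only Ntrk2 and Vgf passed.

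**Figure D3:**
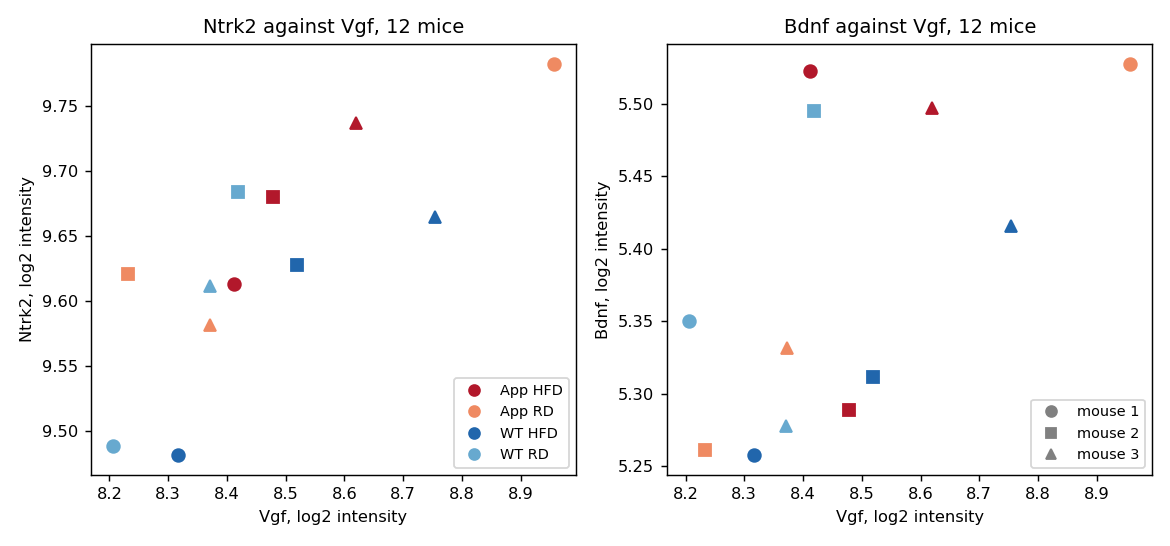
Ntrk2 (left) and Bdnf (right) on the vertical axis against Vgf on the horizontal axis, both as log2 intensity, with 1 point per mouse coloured by group. App RD mouse 1 has the highest value of all 3 genes, and Ntrk2 rises along the other mice too (r = 0.69 without it), more tightly than Bdnf (r = 0.44 without it).

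App RD mouse 1, the mouse highest in Vgf (8.96), Ntrk2 (9.78) and Bdnf (5.53), also stood out among genes that neuronal activity is known to induce. Of 16 such genes it had the highest value of the 12 mice in 8: Arc, Fosb, Egr1, Egr3, Npas4, Nr4a1, Homer1 and Nptx2. Over all clusters it was the highest mouse in 11.5%, the largest share of the 12 mice (6.6% to 11.5%), and also the lowest in 11.4%. Among the 7097 named genes with a mean above an intensity of 100, it was the lowest in 18.5%, beside at most 10.6% for another mouse. It was the highest of them in 10.5%, less than App RD mouse 3 (12.4%) and App HFD mouse 2 (11.7%). The genes singled out here were chosen after their values were seen. Arc, a regulator of synaptic receptor traffic, measured 9.11 in this mouse, 8.29 and 8.46 in the other App RD mice, and at most 8.42 in the 9 mice of the other groups. Npas4, an activity-dependent transcription factor, was 6.87 in it and 6.37 or lower elsewhere. Pcsk1, the prohormone convertase that cleaves VGF and other dense-core cargo, was 8.07 in it and 7.58 or lower elsewhere. The same mouse had the lowest choroid plexus mean (6.19) and the lowest means of hippocampal neuron markers (8.69) and of oligodendrocyte markers (7.55), and the part of dissection or cell content in its values was not tested.

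Over all 12 mice, 15 of the 16 activity-regulated genes correlated positively with Vgf (median r 0.50), 14 with Ntrk2 (median r 0.47) and 15 with Bdnf (median r 0.32). For Ntrk3 the number was 8 of 16 (median r 0.01). As a description of the background, 43.7% of the 7097 genes whose mean lay over an intensity of 100 correlated positively with Vgf (median r -0.06), 51.4% with Ntrk2 (median r 0.01) and 45.1% with Bdnf (median r -0.04). Egr3 (0.80) and Fosb (0.77), both inducible transcription factors, ran closest to Vgf, and Nr4a2 (-0.04) did not follow it. Markers of another kind ran as closely, since 6 of 6 endothelial markers correlated positively with Vgf (median r 0.51) and 5 of 6 with Ntrk2 (median r 0.43). All these values come from the same 12 arrays, so that any feature of a mouse or an array is shared by all of them. App RD mouse 1, highest in Vgf, Ntrk2, Bdnf and 8 of the 16 activity-regulated genes, enters every one of these correlations. The correlations with the listed genes were not computed without it, so how far they hold in the other mice was not tested.

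**Figure D4:**
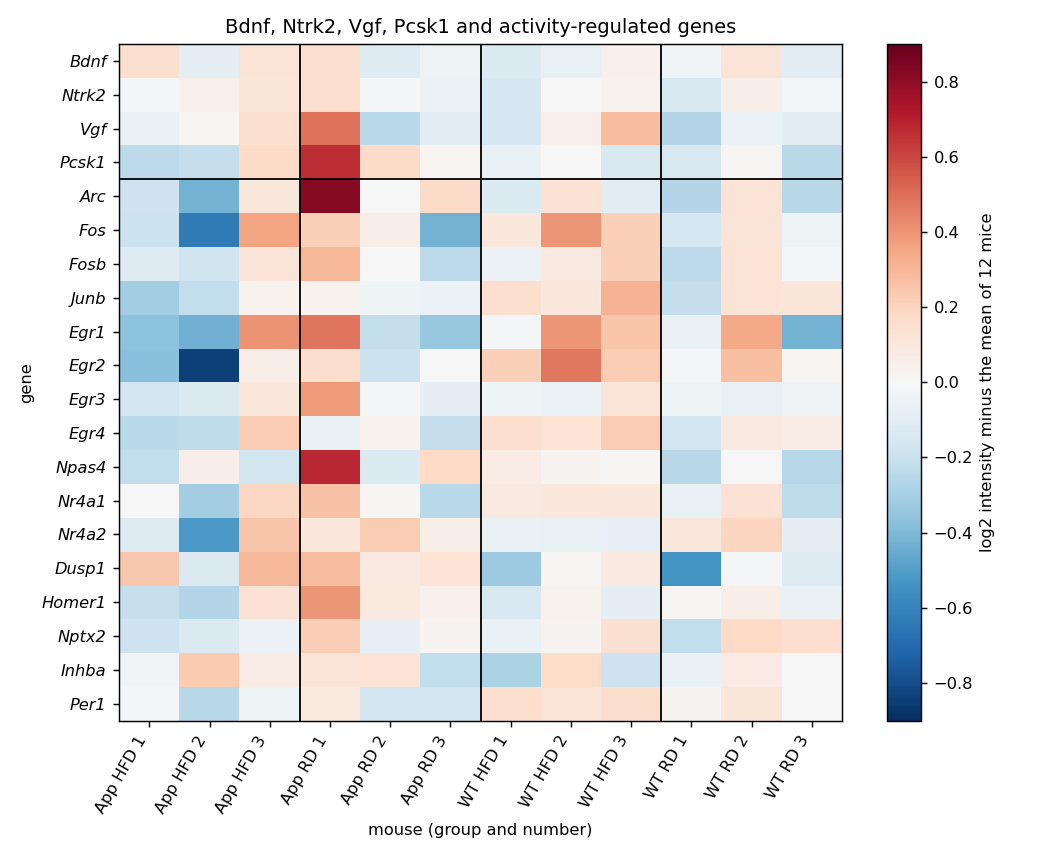
Log2 intensity minus the mean of 12 mice (colour, red above and blue below) for Bdnf, Ntrk2, Vgf and Pcsk1 above the horizontal line and 16 activity-regulated genes below it; columns are mice, with lines between groups. The column of App RD mouse 1 is red for most genes, App HFD mouse 2 is blue for many, and no group is uniform.

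Because Bdnf transcription is known to follow activity through the cAMP response element (CRE), the promoter windows of the genes were searched for it. RefSeq windows of build GRCm38.p6, 250 bases before and 50 after a start site, were at hand for Bdnf (7 start sites), Gdnf (2), Ntf3 (2), Ngfr (1) and Ntrk2 (1), and not for Vgf and Ntrk3. The exact letters of the full CRE (TGACGTCA) and of the binding site of EGR factors (GCGGGGGCG), each searched on both strands in the 250 bases before the start, were found at none of these 13 starts, beside 1.55% and 2.57% of all 32851 windows. Elements that differ from these letters in 1 base were not searched for. The core of the CRE, TGACG or its reverse complement CGTCA, which also forms part of the full element, was found before 2 of the 13, 1 of Bdnf and 1 of Gdnf, beside 17.77% of all windows, so the share for these genes was not above that of promoters in general. Both are shown with the match in capitals, because they are the only matches of the 3 motifs among these genes. The Bdnf match begins 35 bases before its start site, in the printed stretch chr2:109692361-109692435, and the Gdnf match 50 bases before its start site, in chr15:7809958-7810042. Both genes lie on the plus strand, both stretches end before the start site, and in both the core reads on the opposite strand.
Bdnf: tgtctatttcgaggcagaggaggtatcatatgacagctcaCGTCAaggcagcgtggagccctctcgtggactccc
Gdnf: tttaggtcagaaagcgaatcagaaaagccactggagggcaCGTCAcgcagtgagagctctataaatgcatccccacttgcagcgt
Read with the letters just before it, the Bdnf match differs from the full CRE in 1 base. A match is a run of letters and does not show binding, and the lack of an exact match does not show that a working element is absent. The single Bdnf cluster of the array does not separate transcripts from the different start sites.

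The genes whose levels ran closest to each of the 6 were looked up among 6856 named genes, those with a mean above an intensity of 100 once chemosensory receptors, small RNA genes and gene predictions were set aside, over the 12 arrays and as a description only. Vgf was closest to Slc2a13 (r = 0.94), Ttyh1 (0.90) and Smad3 (0.88). Ntrk2 was closest to Zfp131 (0.90), Tceal9 (0.90) and Nova2 (0.89), and Bdnf to Mapk4 (0.91), Mrpl58 (0.90) and Epm2aip1 (0.86). Ntrk3 was closest to Copz2 (0.91), Unc5a (0.90), which encodes a netrin receptor, and Erc2 (0.89), which encodes a presynaptic active zone protein. Gdnf was closest to Dmtf1 (0.85), Smc5 (0.83) and Pou3f3 (0.81), and Ngfr to Cbr1 (0.83), Tmem237 (0.82) and Noct (0.81).

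In the wider pathway, too, no gene was called. Of 110 genes in 8 lists around the neurotrophins, 95 had a cluster, none was called in limma in any of the 8 contrasts after adjustment, and 29 of 760 combinations (3.82%) had an unadjusted p under 0.05, beside 5.37% over all clusters and contrasts. Ntf5, the ligand NT-4/5 that shares TrkB with BDNF, and Sort1, the sortilin co-receptor of p75, had no p under 0.05, with genotype differences of -0.20 (SE 0.16) and -0.03 (SE 0.05). Of the 9 further genes of the GDNF family, none had a p under 0.05 either, and their median genotype difference was 0.00, beside 0.00 over all clusters.

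Among 11 genes that process or sort neurotrophins, Pcsk1 alone had a p under 0.05. It measured 7.17, 7.19 and 7.58 in App HFD mice, 8.07, 7.58 and 7.43 in App RD mice, 7.35, 7.40 and 7.27 in WT HFD mice, and 7.26, 7.42 and 7.17 in WT RD mice. All App RD mice lay above all WT RD mice (lowest App RD 7.43, highest WT RD 7.42), as groups were apart in 10.9% of all clusters in that comparison (difference 0.41, SE 0.17, limma adjusted p = 0.781), and App HFD against App RD gave -0.38 (SE 0.17, adjusted p = 0.999) with overlapping groups. Without App RD mouse 1 these differences were 0.22 and -0.19 (limma adjusted p = 0.916 and 1). Of 19 genes of Trk signalling, Crtc1 had a p under 0.05, a CREB co-activator that measured 9.97, 10.09 and 10.06 in App HFD mice and 9.82, 9.84 and 9.90 in App RD mice. Its difference was 0.19 for App HFD against App RD (SE 0.07, limma adjusted p = 0.999) and -0.19 for App RD against WT RD (adjusted p = 0.759). These contrasts share the App RD mice, so an extreme value there enters both with opposite sign.

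Of 7 partners of p75, Rtn4r, the Nogo receptor, had a genotype difference of -0.12 (limma adjusted p = 0.763) and Rhoa, a small GTPase downstream of p75, one of 0.12 (adjusted p = 0.772). Among 14 genes of dense-core vesicle cargo, the class to which Vgf belongs, only Penk, the enkephalin precursor, had a p under 0.05 (genotype -0.28, limma adjusted p = 0.768). Of 17 other trophic genes, Igf1 had the smallest p of all 95, with 5.33, 5.34 and 5.59 in App HFD mice against 4.94 to 5.19 in the 3 WT HFD mice, and 5.52, 5.47 and 5.51 in App RD mice against 5.06, 5.16 and 5.28 in WT RD mice. All 6 App mice lay above all 6 WT mice in this insulin-like growth factor, a separation found in 0.503% of all clusters and in none of the 6 genes, and the genotype difference of 0.36 (SE 0.07) had a limma adjusted p of 0.381. Met, the receptor of hepatocyte growth factor, differed by -0.35 with genotype (limma adjusted p = 0.654), and Fgfr1, a receptor of fibroblast growth factors, by 0.25 between App HFD and WT HFD (adjusted p = 0.925).

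In the 16 activity-regulated genes, none was called, and the signs of the diet difference leaned opposite ways in the genotypes. For App HFD against App RD 2 of 16 were above 0 (median -0.13), and for WT HFD against WT RD 12 of 16 were (median 0.13), beside a median of 0.00 over all clusters in both. The count for App HFD against App RD rested on App RD mouse 1, since without it 8 of 16 were above 0 with a median of 0.00. The interaction was below 0 in 15 of 16, with a median of -0.21 (-0.11 without App RD mouse 1), beside -0.0003 over all clusters. The share of all clusters below 0 was not counted. Among the 16, Npas4 alone had a p under 0.05 (-0.56, SE 0.24, limma adjusted p = 0.99). These genes were read in the same mice and are not independent of each other. App HFD mouse 2 was the lowest of the 12 mice in Arc, Fos, Egr1, Egr2, Nr4a1, Nr4a2, Homer1 and Per1, and the highest in Inhba. It was the lowest mouse in 7.7% of all clusters and in 6.3% of the 7097 named genes with a mean above an intensity of 100. From the top, it ranked 5 in Vgf, 4 in Ntrk2 and 9 in Bdnf. The counts without App HFD mouse 2 were not computed. The smallest p-values belonged to Egr2 (App HFD against WT HFD -0.69, limma adjusted p = 0.925), Junb (-0.36, adjusted p = 0.925), Per1 (genotype -0.19, adjusted p = 0.707) and Dusp1 (genotype 0.30, adjusted p = 0.752). Vgf had an interaction in the same direction (-0.22, SE 0.25) and Bdnf had one of 0.11 (SE 0.14), neither with a p under 0.05.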

How the data were processed

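Each of 12 hippocampal RNA samples was run on its own Affymetrix Mouse Gene 2.0 ST array, and the authors imported the scans into Transcriptome Analysis Console. They deposited log2 expression values for 41345 transcript clusters per array. How signals were background-corrected, summarised and normalized is, for these arrays, not given in the sources used here. No further normalization was applied, and groups were taken from the sample labels, which name biological replicates. Clusters were named from the platform annotation given for the array. Where a gene had several single-symbol clusters, the one with the highest mean was used.

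A 4-group model was fitted in limma (version 3.58.1, under R 4.3.3; lmFit, then eBayes), with Benjamini-Hochberg adjustment across every cluster, and genes were called at an adjusted p under 0.05. The fit was tested on simulated data. Exact permutation tests were two-sided, over all splits of 3 against 3 mice (smallest p 0.1) or all assignments within the strata (smallest p 0.005). Correlations between genes over mice were tested with 100000 permutations in Python. The number of arrays limits the precision. The named genes were all 7 listed ones, up to 4 genes per further list with an unadjusted p under 0.05, by smallest p, and the 3 genes most like each. The genes and lists were chosen with earlier results of these data known. Alternatives were another filter, spread model, normalization, array weighting or block, fits of only 2 groups, and leaving out each mouse in turn.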

Additional observations from a re-analysis of the deposited data

How the results depend on the processing

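The count of the 6 genes called at an adjusted p under 0.05 was 0 in every contrast and F test run under the 19 alternatives, including the replicate block (0 called) and each mouse left out (from 0 to 0 called); the fits of only 2 groups apply to the 5 pairwise contrasts and give no F test. The smallest adjusted p of a gene in any alternative was 0.363, for the genotype difference of Ntrk3 with the filter on a mean intensity of at least 100, which leaves 3 of the 6 genes. Of 870 alternative values of single genes, 53 changed sign, in 21 of the 48 combinations, and 16 had an unadjusted p under 0.05, all for Ntrk3, Gdnf and Ngfr. The genotype difference of Ntrk3 was negative throughout, with -0.11 under quantile normalization and -0.09 under median centring, and its exact permutation p ranged from 0.005 to 0.03. The labels tie no mice together by number. Same-numbered mice had residual correlations of -0.002 to 0.105 (mean 0.039), against -0.080 to 0.061 (mean -0.019) for other pairs. Same-numbered pairs were thus higher on average, and whether such mice share anything was not tested. The numbers were not used to pair mice in the main fit, and the replicate block was run as an alternative. With the replicate block, Gdnf had limma adjusted p = 0.713 for App RD against WT RD and 0.893 for the interaction, both with an unadjusted p under 0.05. The mean of several clusters of a gene was not run, since each measured gene had 1 cluster. With 3 mice a group and dim signals, the 95% interval of the Gdnf interaction ran from -0.88 to 0.07. Values inside such an interval, 0 among them, could not be told apart with these data. Leaving out App RD mouse 1 for the activity-regulated genes was added after the data were seen. It moved their median for App RD against WT RD to -0.06, beside 0.04 with all mice.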
